A study of Bos taurus with 2 samples.

Results

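GATA1, KLF1 and ALAS2 are 3 of the 17846 genes counted in single cells of bovine embryos, and they were followed here in relation to the embryonic globin gene HBZ. The genes were chosen by name, with earlier results of these data known. They encode regulators of red cell formation and the enzyme that opens heme synthesis in red cells. Their levels were described in cells with 500 or more HBZ UMIs, and their detection was described in all other cells. A UMI is a barcode added to each captured transcript, so that copies of it made by amplification count as 1. The cells above the limit are called HBZ-high cells; they are a range of HBZ counts and not a cell type defined by clustering.

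GATA1 is a zinc finger transcription factor on which the erythroid and megakaryocyte lineages depend. KLF1 is an erythroid transcription factor that acts on globin, membrane and heme pathway genes, largely at sites shared with GATA1. ALAS2 is the red cell form of 5-aminolevulinate synthase, which makes the rate-limiting precursor of heme, while ALAS1 serves the other tissues. In mammalian embryos the earliest red cells arise in the yolk sac, enter the circulation and carry embryonic globins such as HBZ, an alpha-like chain.

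The study profiled bovine embryos flushed at day 25 that were chimeras with incorporated bovine embryonic stem cells. They were cut up, dissociated with papain and DNase I, passed through a strainer, sorted and loaded on a 10x Genomics droplet system for 3′ RNA counting. The samples are replicates 1 and 2 of 1 group, so no conditions were compared, and each comparison is between classes of cells within the same suspensions. The labels do not say whether the replicates came from separate embryos, which cells descended from the stem cells, or how the sort was gated.

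The table held 4437 cells, with 11182089 UMIs over 1973 cells in replicate 1 and 15427708 UMIs over 2464 cells in replicate 2. HBZ-high cells numbered 9 in replicate 1 and 19 in replicate 2, which is 0.456% and 0.771% of the cells. Their median depth was 27366 and 26933 UMIs, against 4876 and 5542 in the other cells. Globin transcripts made up a median of 49.5% and 51.5% of their UMIs, so levels are given as UMIs per 10000 non-globin UMIs. Ribosomal protein genes took a median of 17.1% and 18.1% of their UMIs, against 4.10% and 5.51% in the other cells. No deposited cell had more than 3999 detected genes, so any cell above such a limit is not analysed here. The replicates shared 6 cell barcodes, and 0 of these belonged to HBZ-high cells.

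The HBZ limit fell in an empty stretch of the distribution. The lowest HBZ-high cells had 1039, 1206 and 1230 HBZ UMIs. The nearest cells outside had 130, 139 and 352 HBZ UMIs, all in replicate 2, and they held 0, 1 and 2 ALAS2 UMIs and no GATA1 or KLF1 UMI. A limit of 1000 HBZ UMIs therefore selects the same 28 cells.

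GATA1 transcripts were found in 8 of 9 HBZ-high cells of replicate 1 and in 17 of 19 of replicate 2. A cell held 0 to 14 GATA1 UMIs with a median of 3 in replicate 1, and 0 to 13 with a median of 3 in replicate 2. The pooled GATA1 level was 3.96 UMIs per 10000 non-globin UMIs in replicate 1 (46 UMIs; exact Poisson 95% interval 2.90 to 5.28) and 2.34 in replicate 2 (62 UMIs; 1.80 to 3.01), a mean of 3.15 ± 1.14 (SD, n = 2). The intervals of the replicates overlapped at their edges. These intervals, and all others on single sums or shares, cover counting error only.

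KLF1 was the member detected in every HBZ-high cell, 9 of 9 and 19 of 19. A cell held 1 to 10 KLF1 UMIs in replicate 1 (median 5) and 1 to 11 in replicate 2 (median 3). The pooled KLF1 level was 4.04 in replicate 1 (47 UMIs; 2.97 to 5.38) and 2.72 in replicate 2 (72 UMIs; 2.13 to 3.43), a mean of 3.38 ± 0.935 (SD, n = 2). The spread of KLF1 UMIs over the 28 cells was taken around the count expected from each cell's non-globin UMIs. Its squared deviations were 1.34 times those of counting alone, and those of GATA1 were 2.29 times.

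ALAS2 transcripts were found in 7 of 9 and 19 of 19 HBZ-high cells. A cell held 0 to 24 ALAS2 UMIs in replicate 1 (median 15) and 1 to 61 in replicate 2 (median 10). The pooled ALAS2 level was 9.29 in replicate 1 (108 UMIs; 7.62 to 11.2) and 10.1 in replicate 2 (266 UMIs; 8.88 to 11.3), a mean of 9.67 ± 0.540 (SD, n = 2). Replicates were thus nearer to each other for ALAS2 than their counting intervals are wide. Single cells were uneven, with squared deviations 5.15 times those of counting alone on the same depth-adjusted measure. The cell with 61 ALAS2 UMIs had 9802 HBZ UMIs and held 22.9% of the ALAS2 UMIs of HBZ-high cells in replicate 2. Without it the ALAS2 level there was 8.46.

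The members were mostly found together. All 3 were detected in 24 of the 28 HBZ-high cells, 2 in 3 cells and 1 in 1 cell. The cell with 1 member was shallow, with 1833 non-globin UMIs, and held 1 KLF1 UMI. GATA1 was the member at 0 in 2 further cells, both of replicate 2, with 4436 and 8521 non-globin UMIs. ALAS2 was at 0 in the remaining cell, which had 17792 non-globin UMIs. After each cell was thinned to 2000 UMIs, GATA1 was detected in 21.4% of HBZ-high cells, KLF1 in 32.1% and ALAS2 in 60.7%.

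**Figure D1:**
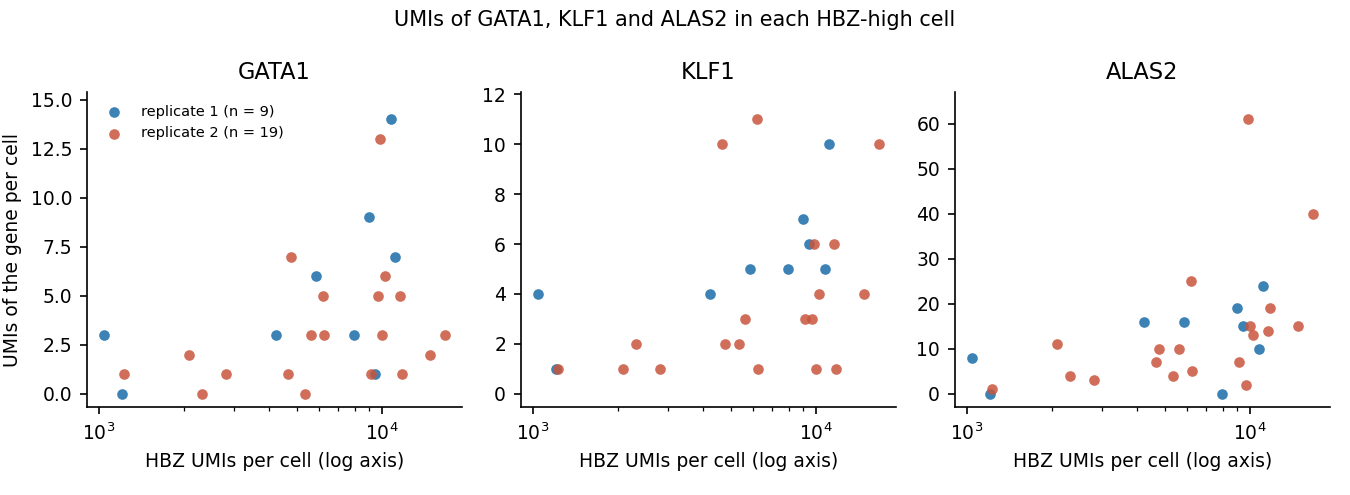
UMIs of GATA1, KLF1 and ALAS2 (vertical axes) against HBZ UMIs (horizontal log axes) in each of the 9 and 19 HBZ-high cells of replicates 1 and 2; each point is a cell. UMI counts of all 3 genes tended to be low in the cells with the fewest HBZ UMIs, and the highest ALAS2 count, 61, was in a cell with 9802 HBZ UMIs.

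Within HBZ-high cells the members' UMI counts were higher where the HBZ count was higher, but their levels per non-globin UMI were not clearly so. Over the 28 cells, centred on the replicate, the correlation of UMIs with log2 HBZ UMIs was 0.44 for GATA1 (Spearman 0.46), 0.46 for KLF1 (0.55) and 0.46 for ALAS2 (0.62). HBZ UMIs themselves followed the cell's non-globin UMIs (Pearson 0.88 on log2 values, Spearman 0.80), so these correlations share the cell's depth. Per 10000 non-globin UMIs the correlation with HBZ was 0.08 for GATA1 (Spearman 0.03), -0.33 for KLF1 (-0.25) and 0.17 for ALAS2 (0.24). All of these describe cells of the same libraries and carry no test.

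The level of ALAS2 was lower where HBZ made up more of the cell's UMIs. Against the HBZ share, which ranged from 12.2% to 34.3% in replicate 1 and from 17.8% to 35.9% in replicate 2, the correlation of the ALAS2 level was -0.42 (Spearman -0.44). That of GATA1 was -0.24 (-0.28) and that of KLF1 was -0.28 (-0.17). The sign of the relation for GATA1 and ALAS2 thus turned with the choice between HBZ as a count and HBZ as a share.

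To set the relation to HBZ against replicate spread, HBZ-high cells above their replicate's median HBZ count (4 and 9 cells) were compared with those at or below it (5 and 10 cells). For GATA1 the level was 2.89 in the lower and 4.83 in the upper cells of replicate 1, and 2.41 and 2.31 in replicate 2. For KLF1 it was 3.66 and 4.36 in replicate 1, and 3.56 and 2.25 in replicate 2. The direction for these regulators differed between the replicates. For ALAS2 the level was 7.70 in the lower and 10.6 in the upper cells of replicate 1, and 8.37 and 11.0 in replicate 2, so it was higher in the upper cells of both.

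None of these differences passed the test. In edgeR's quasi-likelihood test on summed counts, with replicate as a block, the log2 difference was 0.36 for GATA1 (SE 0.50, 95% interval -0.62 to 1.34, adjusted p = 0.943). It was -0.19 for KLF1 (SE 0.49, -1.14 to 0.77, adjusted p = 0.958) and 0.46 for ALAS2 (SE 0.42, -0.35 to 1.28, adjusted p = 0.915). The intervals allow the ALAS2 level of the upper cells to be from 0.784 to 2.43 times that of the lower cells. Of the 1076 genes tested, 0 (0%) were called, 74 had an unadjusted p under 0.05, and DESeq2 called 0, with 8 at an unadjusted p under 0.05. When the cells were split by HBZ share instead, the log2 difference was -0.04 for GATA1, -0.04 for KLF1 and -0.61 for ALAS2 (adjusted p = 0.509).

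HBZ-high cells stood far above all other cells in each member. GATA1 summed to 7 and 6 UMIs in the 1964 and 2445 other cells, a level of 0.00639 and 0.00403 against 3.96 and 2.34 in HBZ-high cells. KLF1 summed to 2 and 5 UMIs, a level of 0.00183 and 0.00336 against 4.04 and 2.72. ALAS2 summed to 11 and 20 UMIs, a level of 0.0100 and 0.0134 against 9.29 and 10.1. The pooled levels of the classes lay far apart in both replicates, while single cells overlapped. GATA1 was at 0 in 3 HBZ-high cells and ALAS2 in 2, and 1 other cell held 4 GATA1 UMIs.

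HBZ-high cells held 1.05% and 1.75% of the non-globin UMIs of their replicate but most of the members' UMIs. Of all GATA1 UMIs they held 86.8% (exact binomial 95% interval 74.7 to 94.5) in replicate 1 and 91.2% (81.8 to 96.7) in replicate 2. Of KLF1 UMIs they held 95.9% (86.0 to 99.5) and 93.5% (85.5 to 97.9), and of ALAS2 UMIs 90.8% (84.1 to 95.3) and 93.0% (89.4 to 95.7). HBZ, which chose the cells, had 93.2% and 96.0% of its UMIs there.

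All 3 members were called higher in HBZ-high cells, where 34.4% of the 13178 genes tested were called in either direction, 11.3% as higher and 23.1% as lower. In edgeR's quasi-likelihood test the log2 difference was 9.65 for GATA1 (SE 0.44, adjusted p = 5.95e-102), 10.62 for KLF1 (SE 0.44, adjusted p = 1.75e-121) and 10.14 for ALAS2 (SE 0.27, adjusted p = 4.60e-287). By size of the log2 difference GATA1 ranked 12, KLF1 5 and ALAS2 8 among the genes tested. The pooled ratio of levels was 564 for GATA1 (316 to 1092), 1153 for KLF1 (543 to 2930) and 818 for ALAS2 (567 to 1222). The test had 1 residual degree of freedom per gene and leaned on the spread pooled over genes. A filter on low counts chose the genes tested. The members passed it only through the HBZ-high sums, as did other genes that were rare in the other cells. Such genes could be called higher but hardly lower. Without that filter GATA1, KLF1 and ALAS2 were at 9.72, 10.69 and 10.21. The TMM factors amounted to a log2 shift of 0.48 between the classes. With library totals only, the members were at 9.18, 10.13 and 9.65.

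**Figure D2:**
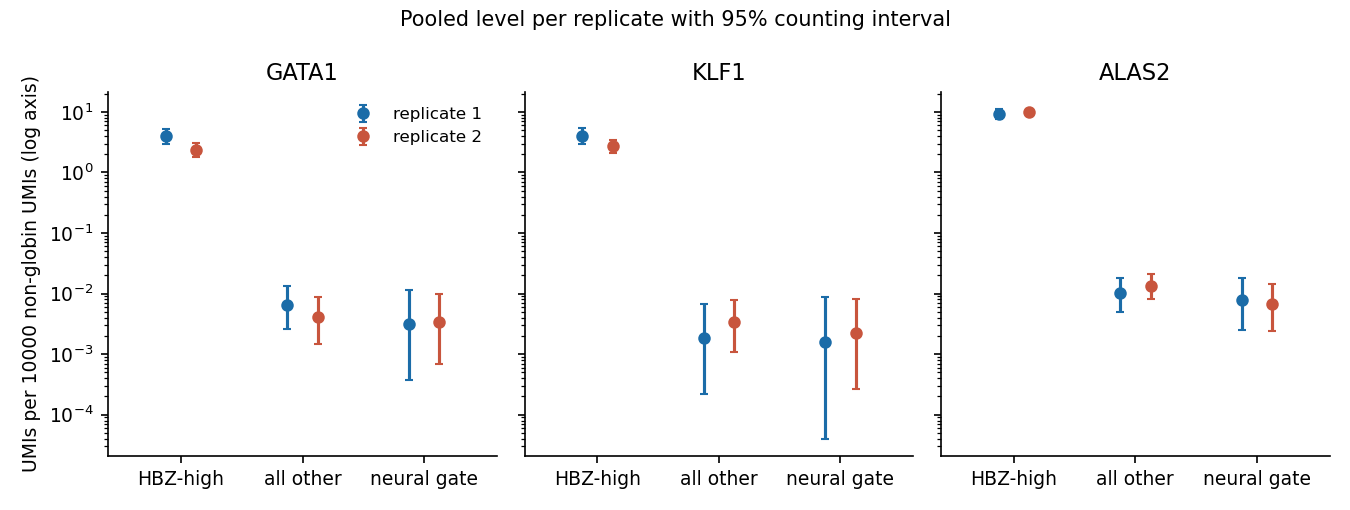
Pooled level of GATA1, KLF1 and ALAS2 in UMIs per 10000 non-globin UMIs (log axis) in HBZ-high cells, all other cells and other cells gated on neural genes, per replicate; bars are exact Poisson 95% intervals. HBZ-high cells lie between 2.34 and 10.1 and the other classes below 0.02 for all 3 genes.

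GATA1, KLF1 and genes that act beside them were measured as a list of 20 regulators, of which 18 were tested. Of these, 10 were called higher in HBZ-high cells, GATA1 and KLF1 among them, 3 lower, and 5 passed in neither direction. The median log2 difference, with GATA1 and KLF1 included, was 1.67. It was -0.93 over all genes tested, of which 11.3% were called higher and 23.1% lower. The list was drawn up with earlier results of these data known.

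Partners of GATA1 in DNA-bound complexes were among those called higher. TAL1, a basic helix-loop-helix factor, had 17 and 30 UMIs in HBZ-high cells and 11 and 11 in the other cells (log2 7.68, SE 0.69, adjusted p = 3.14e-27 in edgeR's test). LMO2, the adaptor that bridges TAL1 and GATA1, had 3 and 42 UMIs against 34 and 46 (log2 5.48, SE 0.62). GFI1B, a repressor of the erythroid and megakaryocyte lineages, had 3 and 24 UMIs against 1 and 2, a pooled ratio of 610 with a counting interval of 188 to 3144. LMO2 and GFI1B therefore came mostly from replicate 2, at levels of 0.258 against 1.59 and of 0.258 against 0.907. LDB1, which joins these factors into loops, was at 0.344 and 0.378 in HBZ-high cells and at 0.357 and 0.358 in the others (log2 0.54, adjusted p = 0.451).

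Other regulators called higher were NFE2 (log2 7.32, SE 0.72), a subunit of a factor that binds globin enhancers, LYL1 (6.89, SE 1.21), a relative of TAL1, and IKZF1 (5.49, SE 1.11). FOXO3, a forkhead factor of red cell maturation, had 18 and 61 UMIs and a log2 difference of 1.64 (SE 0.28), and was seen in 27 of 28 HBZ-high cells. ZFPM1, the GATA1 cofactor known as FOG1, was called at 1.70 (SE 0.70, adjusted p = 0.0462) on 3 and 8 UMIs. ZFPM1 was not called by DESeq2 or with library totals only.

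The other regulators were called lower, did not pass or were not tested. GATA2, the GATA factor of progenitors, had 0 UMIs in HBZ-high cells against 308 and 382 in the others, at least 3.39-fold lower on a floor of 3 UMIs over all HBZ-high cells. BCL11A and SOX6, repressors of embryonic and fetal globin genes, were called lower. BCL11A had 1 UMI against 1081 and 1410 (36.7-fold lower, counting interval 6.59 to 1451), and SOX6 had 3 and 19 UMIs against 2715 and 4047 (log2 -1.74, SE 0.33). MYB, a progenitor factor, had 2 and 0 UMIs (adjusted p = 0.983), and RUNX1, CBFA2T3 and KLF3 had adjusted p of 0.0925, 0.982 and 0.353. EPOR, the erythropoietin receptor, had 1 and 8 UMIs in HBZ-high cells and 2 and 3 in the others, too few for the filter, as were those of TRIM58.

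The heme pathway was higher in HBZ-high cells nearly throughout. Of 8 enzyme genes described 7, ALAS2 included, were called higher in HBZ-high cells and 0 lower, beside 11.3% and 23.1% of all genes tested. Their median log2 difference was 4.02, beside -0.93 over all genes. ALAD, which joins 2 molecules of the ALAS product, was at 10.2 and 11.0 in HBZ-high cells against 0.318 and 0.317 in the others (log2 5.55, SE 0.20). The differences were 3.73 (SE 0.53) for UROS and 4.58 (SE 0.35) for UROD, which close and trim the ring. They were 3.47 (SE 0.62) for CPOX and 3.11 (SE 0.42) for PPOX, the oxidases that follow, and 4.31 (SE 0.34) for FECH, which inserts the iron. The 7 calls held under each scaling run, DESeq2 and the fit without the replicate block.

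ALAS1 was the enzyme not called (log2 -1.46, SE 1.09, adjusted p = 0.310). It had 0 and 2 UMIs in HBZ-high cells and 230 and 300 in the others, a level 3.91-fold lower in HBZ-high cells with a counting interval of 1.08 to 32.3. ALAS2 accordingly made up 100% (108 UMIs beside 0 of ALAS1, interval 96.6 to 100) and 99.3% (266 UMIs beside 2 of ALAS1, 97.3 to 99.9) of the ALAS transcripts of HBZ-high cells. In the other cells its share was 4.56% (2.30 to 8.02) and 6.25% (3.86 to 9.49). Capture differs between ALAS1 and ALAS2, so the share is set only beside the same share in the other class. The intervals of the classes did not overlap in either replicate.

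**Figure D3:**
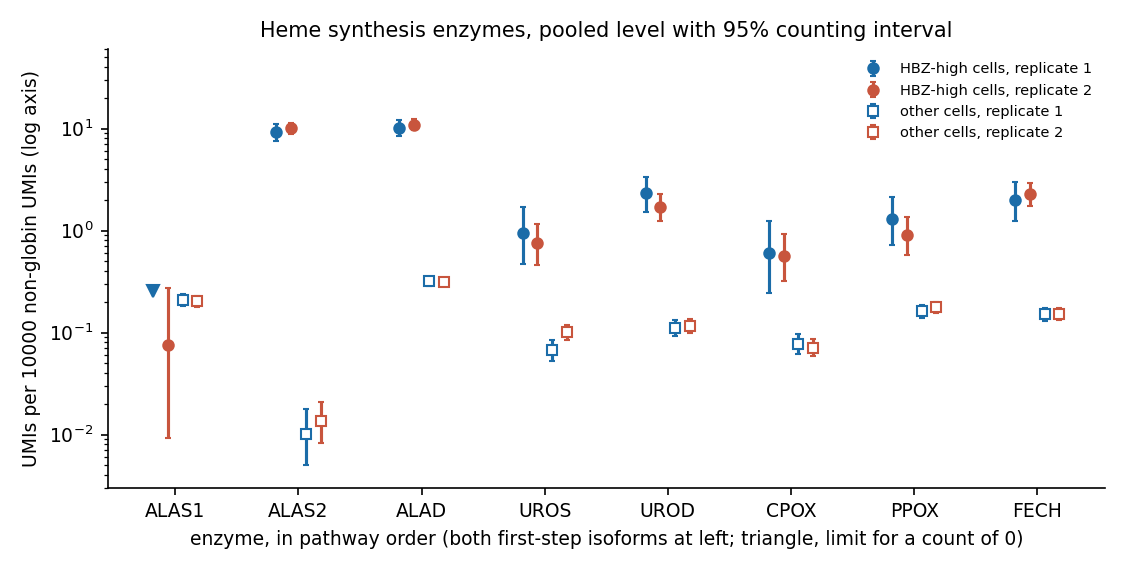
Levels of 8 heme synthesis enzyme genes in UMIs per 10000 non-globin UMIs (log axis), in pathway order, for HBZ-high cells (filled circles) and other cells (open squares) of each replicate; bars are exact Poisson 95% intervals and the triangle is the limit that a count of 0 allows, 0.258, for ALAS1 in replicate 1. HBZ-high cells lie above the other cells for each enzyme except ALAS1; levels of different enzymes are not comparable, as capture differs between genes.

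Genes that bring iron and carry porphyrins were less uniform. Of 20 tested, 11 were called higher, 1 lower and 8 in neither direction, with a median log2 difference of 1.89. Over all genes tested, 11.3% were called higher and 23.1% lower. STEAP3, the reductase of endosomal iron, differed by 6.12 (SE 0.57), and TMEM14C, which carries protoporphyrinogen into the mitochondrial matrix, by 4.94 (SE 0.18). FTH1, the ferritin heavy chain that stores iron, was at 201 and 213 in HBZ-high cells against 8.69 and 10.4 (4.92, SE 0.07). SLC25A37, the mitochondrial iron importer, differed by 4.53 (SE 0.28), its stabiliser ABCB10 by 4.00 (SE 0.32) and SLC25A39, a mitochondrial glutathione carrier, by 3.99 (SE 0.28). FLVCR1, a heme exporter, was called lower on 0 and 1 UMIs against 536 and 619 (17.0-fold, counting interval 3.05 to 673), a call that DESeq2 did not make. With library totals only, 10 of the 20 iron and porphyrin genes were called higher and 4 lower.

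A list on the red cell membrane and red cell maturation also holds antioxidant and other cytoplasmic proteins. Of its 25 genes tested, 20 were called higher and 2 lower, beside 11.3% and 23.1% of all genes tested. Their median log2 difference was 3.88. The Kell antigen gene KEL had 15 and 36 UMIs against 0 and 2, a pooled ratio of 1730 with a counting interval of 455 to 14668. HEMGN, a nuclear protein of erythroid cells, differed by 10.50 (SE 0.44) and the anion exchanger SLC4A1 by 9.84 (SE 0.91). RHAG, of the Rh complex, had 6 and 25 UMIs against 1 and 2, a ratio of 701 (219 to 3583). AQP1, a water channel, had 0 UMIs against 290 and 581, at least 4.28-fold lower, and XPO7 differed by -2.46 (SE 0.57). These genes, unlike HBZ, took no part in choosing the cells, but the list was drawn up with earlier results of these data known. KEL, HEMGN, SLC4A1 and RHAG passed the filter on low counts only through the HBZ-high sums.

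Most markers of the neighbouring lineages were at 0 in the same cells, and GP9, LAPTM5 and CD34 were called higher. PF4, ITGA2B and TUBB1 of megakaryocytes had 0 UMIs, while GP9, a platelet glycoprotein gene, had 2 and 13 (log2 6.51, SE 0.99). Of the 8 megakaryocyte genes counted, 7 were at 0 in each replicate, and their summed level was 0.172 and 0.491 in HBZ-high cells and 0.399 and 0.112 in the others. In the leukocyte list PTPRC and CSF1R had 0 UMIs, while LAPTM5, a lysosomal membrane protein of blood cells, had 2 and 12 in 10 cells (log2 5.18, SE 0.93) and SPI1 had 0 and 4. With 2 or more detected genes of that list, 2 HBZ-high cells met its gate. PECAM1 of endothelium had 0 UMIs, as did KIT of progenitors, whereas CD34 had 3 and 14 UMIs (log2 7.87, SE 1.04). The summed leukocyte level was 0.172 and 0.643 against 0.278 and 0.314, so that in replicate 2 this and the megakaryocyte sum were higher in HBZ-high cells. The part of these markers in the result was not tested. The summed endothelial level was 0.0860 and 0.113 against 0.256 and 0.267. The 7 neural genes were all called lower, with summed levels of 0.602 and 0.529 against 12.7 and 13.3.

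Across all 4437 cells the genes whose pattern was most like that of the members were largely red cell genes. Likeness was the Pearson correlation of log2(1 + UMIs per 10000 non-globin UMIs) over 17346 genes, and it is dominated by the 28 HBZ-high cells. Among the closest to GATA1 were KLF1 (0.70), HBM (0.70), ALAS2 (0.68) and SSX5 (0.65). For KLF1 they were HBM (0.82), ALAS2 (0.75), LOC100847469 (0.71), HEMGN (0.71) and GATA1 (0.70). Among those closest to ALAS2 were LOC100847469 (0.78), KLF1 (0.75), HBM (0.73) and SSX5 (0.70). HBM, an alpha-like globin gene, was at 20.5 and 18.9 UMIs per 10000 non-globin UMIs in HBZ-high cells, and HBE4, an embryonic beta-like globin gene, at 1147 and 1761.

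Among the HBZ-high cells alone the measured levels of the members correlated weakly. The levels of GATA1 and KLF1 correlated at -0.10 over the 28 cells centred on the replicate, those of GATA1 and ALAS2 at 0.30, and those of KLF1 and ALAS2 at 0.07. The median count per cell was 3 UMIs for GATA1 and 4 for KLF1, and counting error at such counts weakens correlations. These values therefore do not show that the members vary independently. With the same log2 measure over the 2171 genes found in at least 14 of these cells, those close to GATA1 included CDK6 (0.61), a cell cycle kinase, NDUFS8 (0.61), TOP1 (0.59) and CYB5A (0.59). The closest to KLF1 were PSMB5 (0.62), a proteasome subunit, OTUB1 (0.54), MRPS26 (0.54), INO80C (0.52) and SRSF2 (0.49). PSMB5 followed KLF1 at 0.18 in replicate 1 and 0.77 in replicate 2. These are the highest of many correlations over few cells.

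ALAS2 had its closest match in FTH1, at 0.79, followed by LAP3 (0.68), CALR (0.66), YWHAB (0.64) and PSMA1 (0.64). FTH1 was picked as the highest of 2171 correlations over these same cells, so the values that follow describe the relation and do not test it. The correlation with FTH1 was 0.80 in replicate 1 and 0.77 in replicate 2. It was 0.77 without the cell highest in ALAS2 and 0.61 over the 26 cells that had an ALAS2 UMI. The FTH1 level ran from 32.7 to 337 in replicate 1 (median 195) and from 67.3 to 357 in replicate 2 (median 176). The cells lowest in FTH1 were those at or nearest 0 in ALAS2 in both replicates. FTL, the ferritin light chain, correlated with ALAS2 at 0.30, ALAD at 0.48 and TFRC, the transferrin receptor, at 0.23. SLC25A37 correlated at -0.01 and FECH at -0.40, the latter at -0.81 in replicate 1 and 0.14 in replicate 2.

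**Figure D4:**
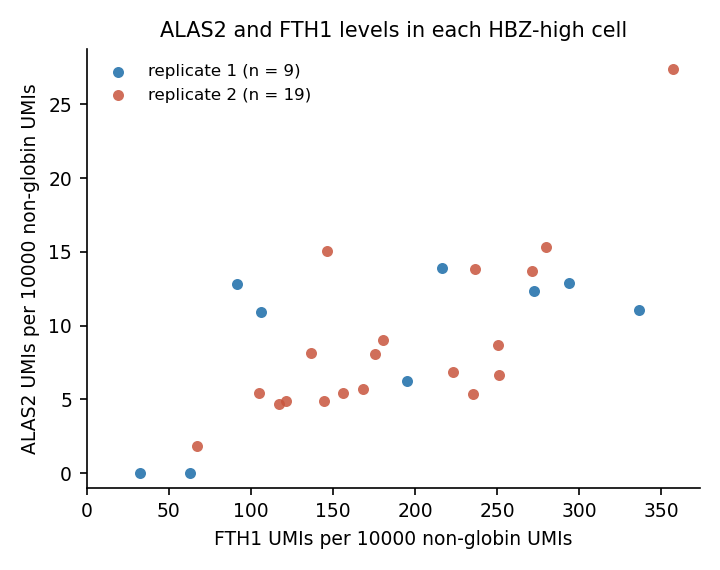
ALAS2 level against FTH1 level, both in UMIs per 10000 non-globin UMIs, in each HBZ-high cell of replicate 1 (n = 9) and replicate 2 (n = 19). The cells with 0 ALAS2 UMIs are those with the lowest FTH1 levels of replicate 1, and the cell with the highest ALAS2 level also has the highest FTH1 level, 357. FTH1 was picked as the gene most correlated with ALAS2 in these same cells.

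In the remaining 4409 cells the members were close to the limit of detection. GATA1 had a UMI in 4 cells of replicate 1 (0.204%, exact binomial 95% interval 0.0555 to 0.521) and in 6 of replicate 2 (0.245%, 0.0901 to 0.533), a mean of 0.225 ± 0.0295% (SD, n = 2). KLF1 had a UMI in 2 (0.102%, 0.0123 to 0.367) and 5 cells (0.204%, 0.0664 to 0.477), a mean of 0.153 ± 0.0726%. ALAS2 had a UMI in 11 (0.560%, 0.280 to 1.00) and 19 cells (0.777%, 0.469 to 1.21), a mean of 0.669 ± 0.153%. After thinning to 2000 UMIs, with 683 shallower cells left out, the shares over both replicates were 0.134%, 0.0537% and 0.403%.

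Droplets also capture free RNA of the suspension, so these shares were set beside those of a cell type that should lack the genes. Cells with 2 or more summed UMIs of SOX2, PAX6 and SOX1, which mark neural cells, numbered 946 and 1226 and had a median depth of 6340 and 7232 UMIs. GATA1 had a UMI in 0.211% and 0.245% of them, KLF1 in 0.106% and 0.163%, and ALAS2 in 0.529% and 0.489%. All 6 shares of the other cells, which include the neural cells, lay within the intervals of the neural shares, so no detection above this background was shown by the shares alone. HBZ itself had a UMI in 82.0% and 81.6% of other cells and in 85.1% and 86.1% of the neural cells.

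The members' UMIs were also set against HBZ UMIs. HBZ defined the classes, so these ratios are a description, and the source of the UMIs in the other cells was not tested. HBZ-high cells held 0.760 and 0.428 GATA1 UMIs, 0.776 and 0.497 KLF1 UMIs and 1.78 and 1.84 ALAS2 UMIs per 1000 HBZ UMIs. The neural cells held 0.830 and 0.946 for GATA1, 0.415 and 0.631 for KLF1 and 2.07 and 1.89 for ALAS2. Over both replicates the neural ratio was 1.70 times that of HBZ-high cells for GATA1 (0.542 to 4.10), 0.928 times for KLF1 (0.189 to 2.78) and 1.08 times for ALAS2 (0.536 to 1.96).

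Over all other cells of both replicates the ratio to HBZ was 2.35 times that of HBZ-high cells for GATA1 (1.21 to 4.20) and 1.62 times for ALAS2 (1.09 to 2.34), and it was 1.15 times for KLF1 (0.453 to 2.44). Within replicates it was 2.08 times (0.794 to 4.65) and 2.31 times (0.815 to 5.31) for GATA1. For ALAS2 it was 1.39 times in replicate 1, with an interval that included 1, and 1.79 times in replicate 2 (1.08 to 2.82). A single cell held 4 of the 13 GATA1 UMIs. Outside the blood and vessel gates GATA1 was at 0.777 UMIs per 1000 HBZ UMIs (0.336 to 1.53), beside 0.526 in HBZ-high cells (0.432 to 0.635). ALAS2 there was at 2.91 (1.97 to 4.16), beside 1.82 (1.64 to 2.02).

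**Figure D5:**
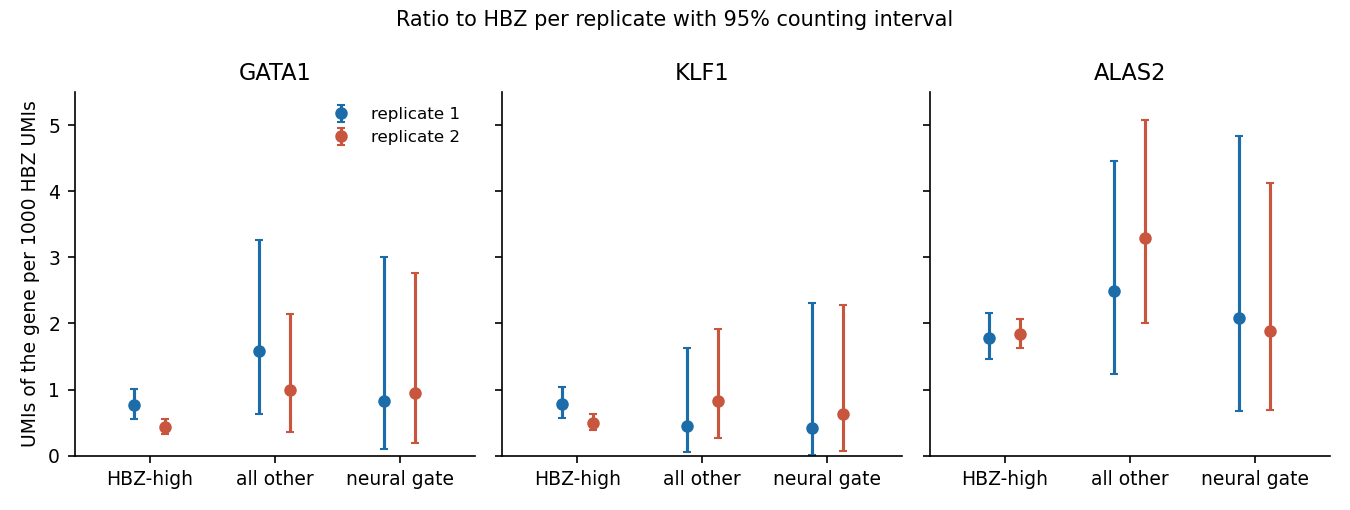
UMIs of GATA1, KLF1 and ALAS2 per 1000 HBZ UMIs in HBZ-high cells, all other cells and other cells gated on neural genes, per replicate; bars are exact Poisson 95% intervals on the member's count. ALAS2 lies at 1.78 and 1.84 in HBZ-high cells, and at 2.49 and 3.29 in all other cells.

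Among the 46 other cells with a member UMI, 43 held 1 member UMI and 1 held UMIs of 2 members, and 19 were in the neural gate. Their median HBZ count was 2, as over all other cells, at a median depth of 6574 UMIs against 5223 for all other cells. In the 353 and 451 cells with 0 HBZ UMIs, KLF1 was found in 0 cells, which allows a share of cells with a KLF1 UMI of up to 0.850% and 0.665% on a limit of 3 cells, at a median depth of 3268 and 3367 UMIs. GATA1 was found in 1 and 1 of them and ALAS2 in 2 and 1.

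All 10 other cells with a GATA1 UMI held 0 UMIs of KLF1 and ALAS2, and 5 of them were in the neural gate. The cell with the most GATA1 UMIs among them was in replicate 1 and rich in megakaryocyte genes. This cell had 8209 UMIs, 0 HBZ UMIs, 4 GATA1 UMIs and 0 of KLF1 and ALAS2. It held 203 UMIs of PF4, 15 of ITGA2B, 20 of TUBB1, 20 of ITGB3 and 8 of GP9, with 8 of TAL1 and 4 of NFE2. A cell of replicate 2 with 4759 UMIs held 1 GATA1, 7 PF4 and 3 TAL1 UMIs. Both were among 15 cells (8 and 7) with 2 or more detected megakaryocyte genes. Both also met the endothelial gate, and the cell of replicate 1 met the leukocyte gate as well.

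Against other cells that met a blood or vessel gate the difference in GATA1 was smaller. Such a gate rests on detection alone and does not define a cell type. The gated cells were the 76 (26 and 50) with 2 or more detected genes of the megakaryocyte, leukocyte or endothelial lists. The comparison was chosen after seeing the data. The gated cells held 5 GATA1 UMIs in 2 cells, 0 KLF1 UMIs and 1 ALAS2 UMI. The log2 difference in edgeR's test was 5.45 for GATA1 (SE 0.52, adjusted p = 7.66e-24) and 9.26 for ALAS2 (SE 0.52, adjusted p = 4.80e-66). KLF1 was at least 73.2-fold higher in HBZ-high cells, on a floor of 3 UMIs over the 76 cells. Without the cell holding 4 GATA1 UMIs the GATA1 level of these cells was 0.0144 in place of 0.0712.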

How the data were processed

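The authors deposited raw UMI counts per gene and cell. Per the submitters' processing notes, Cell Ranger, R 4.1.2 and Seurat 4.3.0 were used with the bosTau9 build; the version of Cell Ranger and the gene annotation were not given in the sources used here. Of 17846 symbols, 17337, the members included, were found in a RefSeq table of ARS-UCD2.0, used for names only, so no coordinates are printed. Columns were matched to samples by the sample number in their names.

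Members and gene lists were chosen with earlier results of these data known. The members, regulators and heme enzymes were named in full, as were the 5 genes most like each member. From the other lists, up to 6 called genes by size of difference, or defining markers, were named. FLVCR1 and XPO7, which were called lower, and FTL and TFRC were named beyond this rule. Some genes are not reported here and were left out of list counts, not of the fits. Counts were summed per replicate over HBZ-high and other cells, without the 10 globin genes, and tested with edgeR 4.0.16 in R 4.3.3 (filterByExpr, TMM, robust quasi-likelihood, replicate as a block, Benjamini-Hochberg at 0.05). Replicates pair the sums because both come from 1 suspension. The p-values rest on the spread between these samples pooled over genes, and hardly on the spread of a single gene between its replicates. The spread between the samples may be technical. DESeq2 1.42.0 and the other settings were alternatives. In simulated data, 93% of 4-fold changes were recovered for HBZ-high against other cells. The changed genes were drawn only from those well counted in the smallest sum, so this share does not cover genes with few UMIs. Correlations and exact intervals were computed in Python 3.11.15 with scipy 1.17.1. No cells were filtered and no doublet caller was run.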

Additional observations from a re-analysis of the deposited data

Results flagged for a closer look

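GFP, a row of the table that entered none of the comparisons, had UMIs in HBZ-high cells although no sample without the transgene was given to set a background. HBZ-high cells held 10 GFP UMIs in 6 of 9 cells of replicate 1 and 14 GFP UMIs in 11 of 19 cells of replicate 2. Their GFP level was 0.860 and 0.529 UMIs per 10000 non-globin UMIs, against 16.6 and 18.5 in the other cells, of which 75.6% and 75.7% had a GFP UMI. No HBZ-high cell held more than 3 GFP UMIs, while the highest other cells held 443 and 354. Whether free RNA accounts for the GFP UMIs of HBZ-high cells was not tested.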

How the results depend on the processing

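Of the values recomputed under an alternative, 120 were counted as kept, 13 as moved further and 7 as changed in direction. Kept meant the same direction and call, or a move within the replicate spread or the SE. A number of genes called was counted as kept within a fold limit, which DESeq2 and library totals only met. All 3 members were called higher in HBZ-high cells under each alternative with a test. Leaving out a replicate gave log2 differences of 9.64 to 9.83 for GATA1, 10.29 to 11.36 for KLF1 and 10.23 for ALAS2, with no test because no residual degrees of freedom were left. Without the replicate block 5734 genes were called, and the members were at 9.63, 10.61 and 10.14. DESeq2 called 3180 genes (44.8% of them higher) and library totals only, added after seeing the data, called 5586 (18.5% higher), against 4537 (32.9% higher). Against the cells in the blood and vessel gates, also added later, 2251 genes were called. With other cells of 10% or more ribosomal protein UMIs, likewise added later, GATA1, KLF1 and ALAS2 were at 10.16, 10.30 and 10.10.

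Between the upper and lower HBZ cells, 4 genes were called without the replicate block and 6 with globin genes kept. KLF1 turned to 0.11 without the filter on low counts, and split by HBZ share GATA1 and ALAS2 turned to -0.0400 and -0.607. Leaving out a replicate gave 0.29 to 0.67 for GATA1, -0.31 to 0.19 for KLF1 and 0.40 to 0.74 for ALAS2. The cause was not tested. With all UMIs as denominator the levels in HBZ-high cells were 1.59, 1.71 and 4.86, since globins fill the larger denominator. Thinning put the mean shares of other cells with a UMI at 0.139%, 0.0480% and 0.405%. The Spearman correlation of the level with HBZ was -0.280 for GATA1, -0.173 for KLF1 and -0.442 for ALAS2 against the HBZ share. With all UMIs as denominator it was -0.330 for KLF1 and 0.0479 for ALAS2, and with cells of 100 or more HBZ UMIs it was 0.108 for KLF1. Leaving out a replicate gave -0.0772 to 0.283, -0.267 to -0.211 and 0.0753 to 0.254. The 28 HBZ-high cells limit each statement on single cells.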

Other observations

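A replicate 1 cell with 7955 HBZ UMIs and 17792 non-globin UMIs held 0 ALAS2 UMIs, where the level of the other HBZ-high cells of its replicate would give 19.5. It was singled out after its values were seen. GATA1 and KLF1 had 3 and 5 UMIs, where 7.77 and 7.59 would be expected, ALAD had 9 in place of 19.9, and HBE4 had 909 in place of 2245. AHSP, the alpha-globin chaperone, was also at 0, where 22.6 UMIs would be expected, and FTH1 had 112 UMIs in place of 403. HBM had 132 UMIs in place of 19.2, and FECH had 7 in place of 2.89. Its ribosomal protein share was 30.0%, the highest of the HBZ-high cells.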
